A study of Mus musculus with 15 samples.

Results

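The adult globins Hba-a1, Hba-a2, Hbb-bs and Hbb-bt, the heme synthesis enzyme gene Alas2 and the red cell membrane gene Slc4a1 were followed in mouse testis RNA. These 6 genes, of 23510 in the table, were found by matching their Entrez IDs to RefSeq symbols, and all 6 had a row. They had been chosen by their FPKM values in M5 against MNC, where the globins stood higher in M5, so every difference of these genes between M5 and another group is given as a description, with no test.

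RNA was sequenced in 15 testis libraries of outbred ICR mice, in 5 groups of 3. Mice aged 5 weeks received a mixture of lentiviruses in the testes, carrying 3 short hairpin RNAs against the muscarinic acetylcholine receptor M1, M3 or M5, and 1 testis of a mouse was taken for RNA 10 days later. MNC was the vector control of the receptor lentiviruses, injected at 5 weeks and taken 10 days later as well. The study's injected control virus carried a control short hairpin RNA. Con was the control without a receptor knockdown. The labels do not say whether Con testes were injected, and no age at injection or time is recorded for Con. The labels do not say whether replicates were separate animals, so the p-values measure the spread between these samples. The titles name testis while the extraction text speaks of sperm.

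Hemoglobin, the oxygen carrier of red blood cells, is built of alpha and beta globin chains that each hold a heme. Adult mice carry an alpha globin pair, Hba-a1 and Hba-a2, and a beta globin pair whose form depends on the haplotype. The C57BL/6 reference genome carries the s haplotype, with the genes Hbb-bs and Hbb-bt, and the other common haplotype, d, carries Hbb-b1 and Hbb-b2. Alas2 makes the first enzyme of heme synthesis in red cell precursors, and Slc4a1 makes band 3, the anion exchanger of the red cell membrane. Whole testis holds blood vessels, and young red cells in the blood still contain globin mRNA.

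The globin copies are near identical, which bears on every value that separates them. In the GENCODE transcripts the coding sequences of Hba-a1 and Hba-a2, of 429 bases each, differed by the single substitution C381T, and those of Hbb-bs and Hbb-bt, of 444 bases each, by the single substitution C417T, with positions counted from the A of the start codon. The stretches of 60 coding bases that hold these substitutions are shown for that reason, with the base that differs in capitals.
Hba-a1: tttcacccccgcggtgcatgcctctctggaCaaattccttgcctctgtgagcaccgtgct
Hba-a2: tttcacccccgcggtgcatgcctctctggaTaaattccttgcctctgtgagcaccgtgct
Hbb-bs: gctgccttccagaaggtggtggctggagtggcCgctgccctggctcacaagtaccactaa
Hbb-bt: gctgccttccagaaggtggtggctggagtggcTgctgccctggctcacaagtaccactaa
Over whole transcripts the alpha copies were 99.8% identical across 538 aligned bases, with 1 mismatch. The beta copies were 92.7% identical across 626 aligned bases, with 46 mismatches, nearly all of them outside the coding sequence. The coding sequences of Hba-a1 and Hbb-bs were 64.4% identical. The split of signal between copies therefore rests on how the authors' alignment assigned reads, and the sums over copies are given beside the single genes.

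In GRCm38.p6 the beta genes lie at chr7:103826523-103827928 (Hbb-bs) and chr7:103812524-103813923 (Hbb-bt), the alpha genes at chr11:32283672-32284486 (Hba-a1) and chr11:32296492-32297310 (Hba-a2), Slc4a1 at chr11:102348820-102365281 and Alas2 at chrX:150547417-150570622. The RefSeq promoter table of the same build held 5 of the 6 genes. The 150 bases before the start of 4 of them are shown because these genes differ in how far M5 stood from MNC. Capitals mark matches on either strand to 4 motifs. The GATA box was searched as AGATAA and as TGATAA. The CACCC box was searched with CCACCC and also ACACCC. The CCAAT box was searched by its name alone, and the TATA box with TATAAA and also TATAAG.
Hba-a1, chr11:32283522-32283671, plus strand: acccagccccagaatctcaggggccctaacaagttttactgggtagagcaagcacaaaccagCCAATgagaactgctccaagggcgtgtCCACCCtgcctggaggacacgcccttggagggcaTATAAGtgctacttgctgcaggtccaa
Hbb-bs, chr7:103827929-103828078, minus strand: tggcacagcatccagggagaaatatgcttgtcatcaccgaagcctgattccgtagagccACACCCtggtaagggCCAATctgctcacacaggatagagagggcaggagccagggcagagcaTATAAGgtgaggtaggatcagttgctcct
Hbb-bt, chr7:103813924-103814073, minus strand: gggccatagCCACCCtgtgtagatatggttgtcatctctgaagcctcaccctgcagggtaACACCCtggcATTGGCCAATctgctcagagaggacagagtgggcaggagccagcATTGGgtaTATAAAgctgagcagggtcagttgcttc
Alas2, chrX:150547267-150547416, plus strand: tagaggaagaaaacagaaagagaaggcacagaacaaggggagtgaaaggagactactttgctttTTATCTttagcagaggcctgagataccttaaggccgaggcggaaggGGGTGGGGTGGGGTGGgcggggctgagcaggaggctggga
Hba-a1 and Hbb-bs each held 1 match to the CACCC box, 1 to the CCAAT box and 1 to the TATA box. Hbb-bt held 2, 3 and 1 of these. Alas2 held 1 match to the GATA box and 3 to the CACCC box, each overlapping the next by a base, and neither of the other motifs in this stretch. In the 300-base windows of the table a GATA match was found for Hba-a1, Hba-a2, Hbb-bs and Alas2 and not for Hbb-bt. Of 32817 promoter windows, 18.6% held GATA, 41.9% CACCC, 37.4% CCAAT and 18.8% TATA, so a match describes letters and is no evidence of binding. The windows of Hba-a1 and Hba-a2 were the same over 297 bases at an offset of 3 bases.

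Across all 15 libraries the values are FPKM, fragments relative to gene length and to all mapped fragments, so levels can be set side by side between genes. Summed FPKM was between 470243 and 513817 per library, and the absolute depth is unknown. Transcripts of the targeted receptors were very low, at most 0.17 FPKM for Chrm1, 0.11 for Chrm3 and 0.43 for Chrm5 in any library. Chrm5 lay at 0.22 to 0.37 in M5 and at 0.23 to 0.43 in MNC, Chrm1 at 0.09 to 0.14 in M1 and 0.10 to 0.11 in MNC, and Chrm3 at 0.04 to 0.11 in M3 and 0.01 to 0.05 in MNC. These overlapping or higher values do not check the labels. Germ cell markers were abundant in all libraries, led by Prm1 and Prm2, the protamines of sperm chromatin.

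Hba-a1 was the most abundant member in every library. In M5 it stood at 84.63, 90.15 and 341.76 FPKM in replicates 1, 2 and 3, and in MNC at 14.93, 13.79 and 14.51. The M5 libraries were all above the MNC libraries, with a ratio of means of 11.9, a log2 difference of 3.17 on the log2(FPKM + 1) scale, and M5 replicate 3 far above the other M5 libraries. Without that library the ratio was 6.06 and the log2 difference 2.52.

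Con held 43.10, 26.61 and 59.96 FPKM of Hba-a1. M1 held 18.12, 32.71 and 16.83, and M3 held 14.73, 43.60 and 84.30. In the order of group means, M5 (172 ± 147 FPKM, SD, n = 3) was followed by M3 (47.5 ± 34.9), Con (43.2 ± 16.7), M1 (22.6 ± 8.82) and MNC (14.4 ± 0.577). M3 overlapped Con, Con overlapped M1, and the lowest M5 library lay just above the highest M3 library, so neighbours in this order were not separated beyond their spread except where stated. In bulk RNA, more red cells and more globin RNA per cell cannot be told apart.

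Hbb-bs, the more abundant s copy, was at 58.61, 35.71 and 105.79 FPKM in M5 against 10.24, 1.53 and 0.49 in MNC. M5 and MNC did not overlap, with a ratio of means of 16.3 and a log2 difference of 4.14. MNC replicate 1 held most of the MNC signal, and without it the ratio was 66.0 and the log2 difference 4.99, while without M5 replicate 3 they were 11.5 and 3.75. With each library left out the log2 difference ran from 3.53 to 4.99. In Con it was nearly absent, at 0, 0.08 and 0.09 FPKM. In M1 it was at 3.77, 25.36 and 1.67, and in M3 at 0.18, 13.81 and 1.54, so 1 library of each of these groups stood well above the others.

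Hbb-bt, the less abundant s copy, was at 11.68, 6.22 and 18.38 FPKM in M5, at 1.66, 0.20 and 0 in MNC, and listed at 0 in every Con library. In M1 it was at 0, 4.20 and 0.15, and in M3 at 0, 1.98 and 0, with the single higher value in the library where Hbb-bs was also highest. It followed Hbb-bs, since in the 6 libraries with at least 1 FPKM of Hbb-bt the ratio of Hbb-bs to Hbb-bt was 5.02 to 6.97. Hba-a2 was low throughout. It was at 1.43, 2.17 and 6.94 FPKM in M5, at 0.19, 0 and 0 in MNC, and reached its highest value of 8.81 in M1 replicate 2, where it made up 21.2% of the alpha signal.

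Alas2 differed far less than the globins. It was at 10.69, 13.28 and 17.85 FPKM in M5 against 8.32, 10.22 and 6.78 in MNC, a ratio of means of 1.65 and a log2 difference of 0.65. The M5 values were all above those of MNC, but the lowest M5 value lay below the highest of M3, where Alas2 was at 8.41, 8.80 and 11.48. Con and M1 held 8.71 ± 1.63 and 8.62 ± 1.71 FPKM (SD, n = 3), and the means of the 4 groups other than M5 lay between 8.44 and 9.56.

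Slc4a1 was close to absent, at 0.02 to 0.10 FPKM over the 15 libraries, and M5 (0.04, 0.09 and 0.04) overlapped MNC (0.06 in each). It was the 1 member below the filter on a mean FPKM of 1 over the 15 libraries. Hbb-bt passed that filter only through M5, since its mean over the other 12 libraries was 0.683 FPKM, so its differences between the other groups are given as values and not counted. Hba-a2 passed narrowly, at 1.05 FPKM over those 12, and mainly through M1. Its means were 3.57 in M1, 0.51 in M3, 0.06 in MNC and 0.05 in Con, so its values in comparisons with M1 are descriptions. The red cell label therefore rests mainly on the globins. Alas2 was higher in M5, but its means in the other groups lay between 8.44 and 9.56 FPKM. The means of Hba-a1 ran from 14.4 to 47.5 FPKM in the same groups. The median log2 difference over the 6 members in M5 against MNC was 2.47, beside 0.03 over the 14514 genes tested. The choice of the members fixes this direction, and limma called 5.65% of all genes in that contrast at an adjusted p under 0.05.

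**Figure D1:**
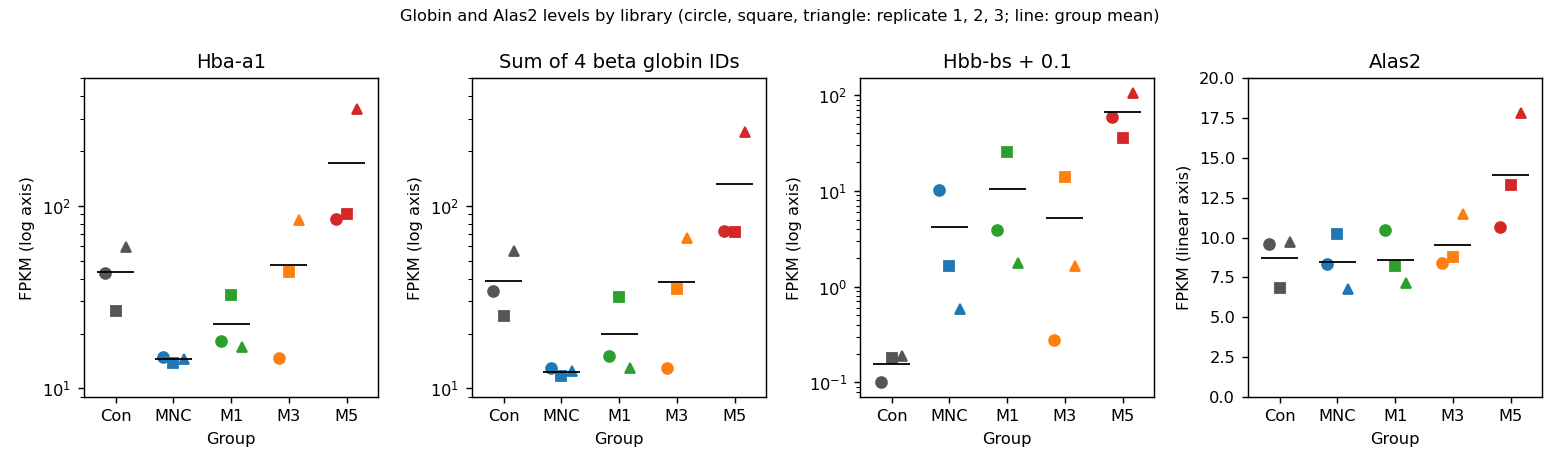
FPKM of Hba-a1, of the sum of 4 beta globin IDs, of Hbb-bs (with 0.1 added) and of Alas2 in each library, by group, with a log axis for the globins and a linear axis for Alas2. Points are libraries (circle, square and triangle for replicates 1, 2 and 3) and lines are group means, and Con is high for Hba-a1 (26.61 to 59.96) and for the beta sum (25.07 to 56.7) while Hbb-bs there is at most 0.09.

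The beta globin signal was divided between the s copies and the d copies in shares that differed widely from library to library. Hbb-b1 and Hbb-b2, which are not among the 6 genes, belong to the list of other globin genes, and the sum over all 4 beta IDs was chosen after seeing the data. Their sequences were not compared with those of the s copies, so how well reads separate s from d copies was not checked. Hbb-b1 was at 28.50, 20.30 and 46.85 FPKM in Con, at 1.03, 8.53 and 10.36 in MNC, and at 2.34, 25.68 and 111.41 in M5. It was at 9.39, 1.95 and 9.20 in M1 and at 11.05, 16.55 and 57.12 in M3. Hbb-b2 followed it at a lower level, with a ratio of Hbb-b1 to Hbb-b2 of 4.33 to 7.01 in the 12 libraries with at least 1 FPKM of Hbb-b2.

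The s copies made up 0%, 0.319% and 0.159% of the summed beta signal in Con. They made up 92.0%, 14.9% and 3.94% in MNC, 24.9%, 93.6% and 14.0% in M1, 1.38%, 44.8% and 2.31% in M3, and 96.2%, 58.2% and 49.0% in M5. In 3 libraries, MNC replicate 1, M1 replicate 2 and M5 replicate 1, the s copies held more than 90% of the signal, and the groups other than Con each held libraries of very different shares. What sets these shares was not tested.

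**Figure D2:**
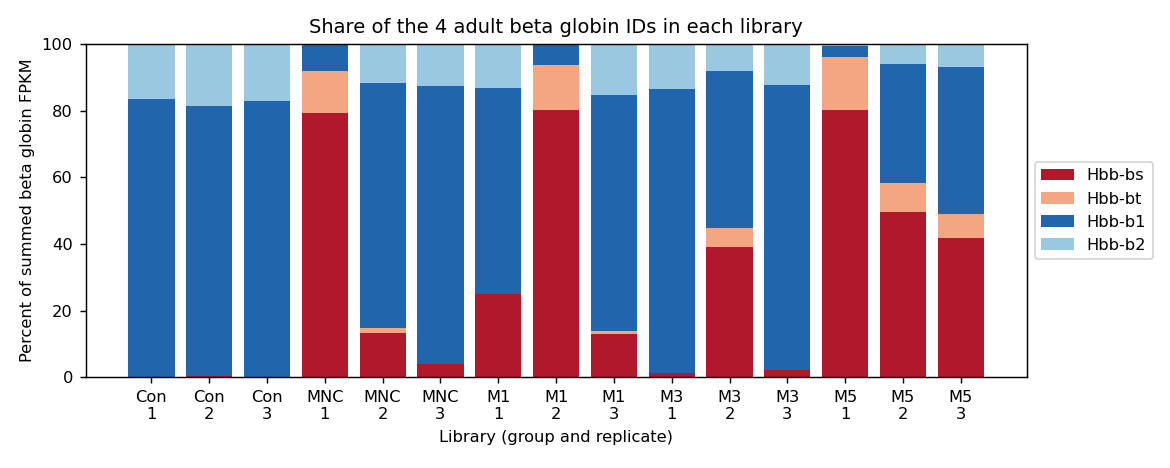
Percent of the summed beta globin FPKM given by Hbb-bs, Hbb-bt, Hbb-b1 and Hbb-b2 in each of the 15 libraries, labelled by group and replicate. The s copies (red shades) hold at most 0.319% in Con and from 1.38% to 96.2% in the other libraries.

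Once the 4 beta IDs were summed, beta globin followed alpha globin. The beta sum was 34.14, 25.07 and 56.7 FPKM in Con, 12.93, 11.63 and 12.43 in MNC, and 73.06, 72.0 and 253.26 in M5. In M1 it was 15.15, 31.58 and 12.99, and in M3 13.0, 35.23 and 66.81. The ratio of the alpha sum to the beta sum stayed between 1.06 and 1.40 in all 15 libraries, while the alpha sum itself ran from 13.79 to 348.7 FPKM.

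Against MNC, M5 was 12.1 times as high for the alpha sum and 10.8 times for the beta sum, with log2 differences of 3.20 and 3.06. Against Con, the same ratios were 4.06 and 3.44, with log2 differences of 1.75 and 1.57. M5 was thus above both controls for the sums with no overlap, whereas Hbb-b1 (log2 difference of 1.84 against MNC) overlapped between M5 and MNC. M5 was 6.72 and 6.67 times as high as M1, and 3.66 and 3.46 times as high as M3, for the alpha and beta sums. These ratios rest in large part on M5 replicate 3. Without it they were 6.16 and 5.88 against MNC, 2.06 and 1.88 against Con, 3.41 and 3.64 against M1, and 1.86 and 1.89 against M3.

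**Figure D3:**
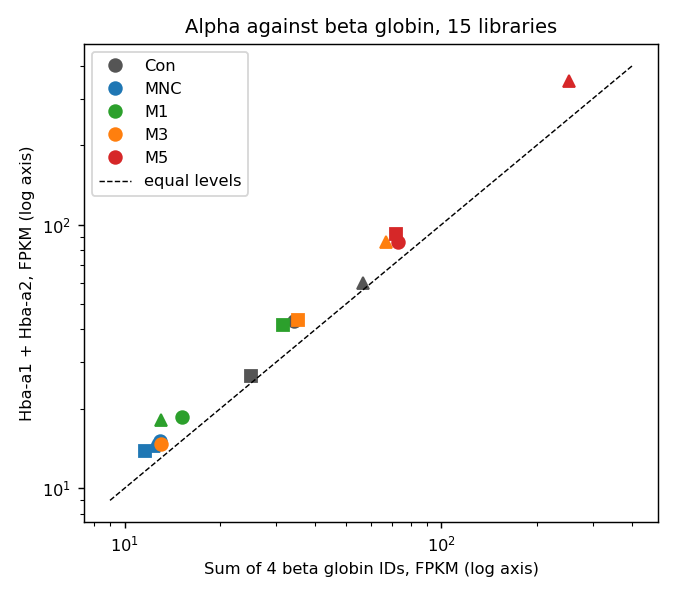
Sum of Hba-a1 and Hba-a2 against the sum of the 4 beta globin IDs, both in FPKM on log axes, 1 point a library (colour for the group, circle, square and triangle for replicates 1, 2 and 3). The points lie just above the dashed line of equal levels, with ratios of 1.06 to 1.40, from MNC at the low end to M5 replicate 3 at 348.7 and 253.26 FPKM.

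The vector control was compared with Con to see what differed without a receptor knockdown. This comparison shares the MNC libraries with the contrast that chose the genes. A choice for M5 above MNC favours genes that read low in MNC, which leans this comparison toward MNC below Con. The p-values are not corrected for that. Hba-a1 was lower in MNC by limma, with a log2 difference of -1.45 (SE 0.269, adjusted p = 0.0251), 14.4 against 43.2 FPKM, and the groups did not overlap. It was the 1 member called of the 4 that reach the filter without M5, where 20.4% of all genes were called (8.03% higher and 12.4% lower), and 2 members against 40.1% of all genes lay under 0.05 before adjustment. Over the alternatives, its adjusted p ran from 0.0176 to 0.0988, and it was called in 9 of 15. Without Con replicate 1, MNC replicate 2 or MNC replicate 3 it was not called, with an adjusted p of 0.0979, 0.0661 and 0.0564.

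Hbb-bs went the other way, with a log2 difference of 1.72 (SE 0.700, limma adjusted p = 0.120), which did not pass. With all 4 beta IDs summed, the difference was -1.50 (SE 0.272, limma adjusted p = 0.0243), the same direction as Hba-a1, and Hbb-b2 was also called lower, at -2.02 (limma adjusted p = 0.0284). Hba-a2 and Alas2 were not called, at log2 differences of 0.02 and -0.04, and the value of Hbb-bt was 0.56. For Slc4a1 the exact permutation test (two-sided, n = 3 each) gave p = 0.4, where 0.1 is the smallest possible.

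Markers of other cells were also called between MNC and Con, where limma called 20.4% of all genes (8.03% higher and 12.4% lower). Their part in the globin values was not tested. limma called 2 of 3 tested lymphocyte markers higher in MNC, Ptprc and Cd3g (adjusted p = 0.0326 and 0.0354), and the list summed to 13.50 to 20.77 FPKM in MNC and 9.15 to 9.73 in Con. It called 1 of 10 macrophage and monocyte markers higher, C1qb (adjusted p = 0.0345), with sums of 107.9 to 195.9 and 81.14 to 106.7. Of 9 germ cell markers 1 was called higher, Acrv1, and 3 lower, Sycp3, Dazl and Ddx4, with sums of 19220 to 25130 in MNC and 9785 to 19200 in Con. Of 7 Sertoli cell markers 1 was called lower, Cldn11, with sums of 77.81 to 87.25 and 93.91 to 110.2. None of the tested platelet (1), neutrophil (2), endothelium (9) or Leydig cell (6) markers was called, though the neutrophil sums did not overlap, at 213.8 to 313.4 in MNC and 76.28 to 208.4 in Con.

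M1 and M3 were compared with MNC to see whether the globins also differed under the other knockdowns. These comparisons use the same MNC libraries, so the choice of the genes leans them toward M1 and M3 above MNC. limma called 0 of the 4 members that reach the filter without M5 in M1 against MNC, where it called 0% of all genes. Before adjustment, 1 member (Hba-a2) and 5.94% of all genes lay under 0.05. Hba-a2 reaches the filter mainly through M1, so that count is a description only. Hba-a1 had a log2 difference of 0.55 (SE 0.239, limma adjusted p = 0.819) although the groups did not overlap, Hba-a2 of 1.64 (SE 0.652, limma adjusted p = 0.819) and Hbb-bs of 1.00 (SE 1.06, limma adjusted p = 0.891). Single libraries decided the last 2 values. Hbb-bs was at 0.03 without M1 replicate 2 and 1.84 without MNC replicate 1, and Hba-a2 ran from 0.86 without M1 replicate 2 to 2.18 without M1 replicate 1.

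In M3 against MNC limma also called 0 of these 4, with 1 at an unadjusted p under 0.05 (Hba-a1), where limma called 0.00689% of all genes and 9.43% lay under 0.05 before adjustment. Hba-a1 had a log2 difference of 1.35 (SE 0.559, limma adjusted p = 0.518), and M3 ranged from the level of MNC to almost that of M5. Without M3 replicate 3 it was 0.78 and without M3 replicate 1 it was 2.00. The beta sum gave 0.55 in M1 and 1.29 in M3 (limma adjusted p = 0.827 and 0.518), and Alas2 gave 0.03 and 0.17. The exact permutation test of Slc4a1 gave p = 1.0 for M1 and p = 0.1 for M3 (two-sided, n = 3 each), at levels of at most 0.10 FPKM.

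M1 and M3 were also compared with Con, which shares no library with the contrast that chose the genes. The median log2 difference over all genes tested was -0.12 in M1 and -0.13 in M3 against Con. In M1, Hbb-bs was called higher by limma, with a log2 difference of 2.72 (SE 0.782, adjusted p = 0.0394), the 1 member called of these 4 where 34.2% of all genes were called (10.3% higher and 23.9% lower). Before adjustment, 3 members and 48.7% of all genes lay under 0.05, among them Hba-a2, which reaches the filter mainly through M1. The adjusted p of Hbb-bs ran from 0.0133 to 0.104 over the alternatives, and it was called in 7 of 15. It was not called without M1 replicate 1 or without any 1 of the Con libraries, at adjusted p of 0.0748 to 0.103. Hbb-b1 and Hbb-b2 were called lower in the same comparison, at -2.20 and -1.81 (limma adjusted p = 0.0264 each). Markers of other cells were also called there, with 2 of 3 lymphocyte markers higher, 6 of 7 Sertoli cell markers lower, 2 of 6 Leydig cell markers lower, 2 of 10 macrophage and monocyte markers higher and 1 lower, and 2 of 9 germ cell markers higher and 3 lower. The single platelet marker tested and 1 of 9 endothelium markers were lower, and 0 of 2 neutrophil markers were called. Their part in the globin values was not tested.

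The beta sum in M1 against Con was -0.95 (SE 0.397, limma adjusted p = 0.104), so the call of Hbb-bs did not carry over to total beta globin and its direction turned. Hba-a1 was at -0.90 (limma adjusted p = 0.0865) and Hba-a2 at 1.66 (limma adjusted p = 0.0842), neither called. In M3 against Con limma called 0 of these 4 members, with 0 at an unadjusted p under 0.05, where limma called 22.1% of all genes (7.01% higher and 15.1% lower) and 43.2% lay under 0.05 before adjustment. Hba-a1 was at -0.10, Hbb-bs at 1.75 (limma adjusted p = 0.155), the beta sum at -0.21 and Alas2 at 0.12. The exact permutation test of Slc4a1 gave p = 0.7 for M1 and p = 0.3 for M3 (two-sided, n = 3 each).

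**Figure D4:**
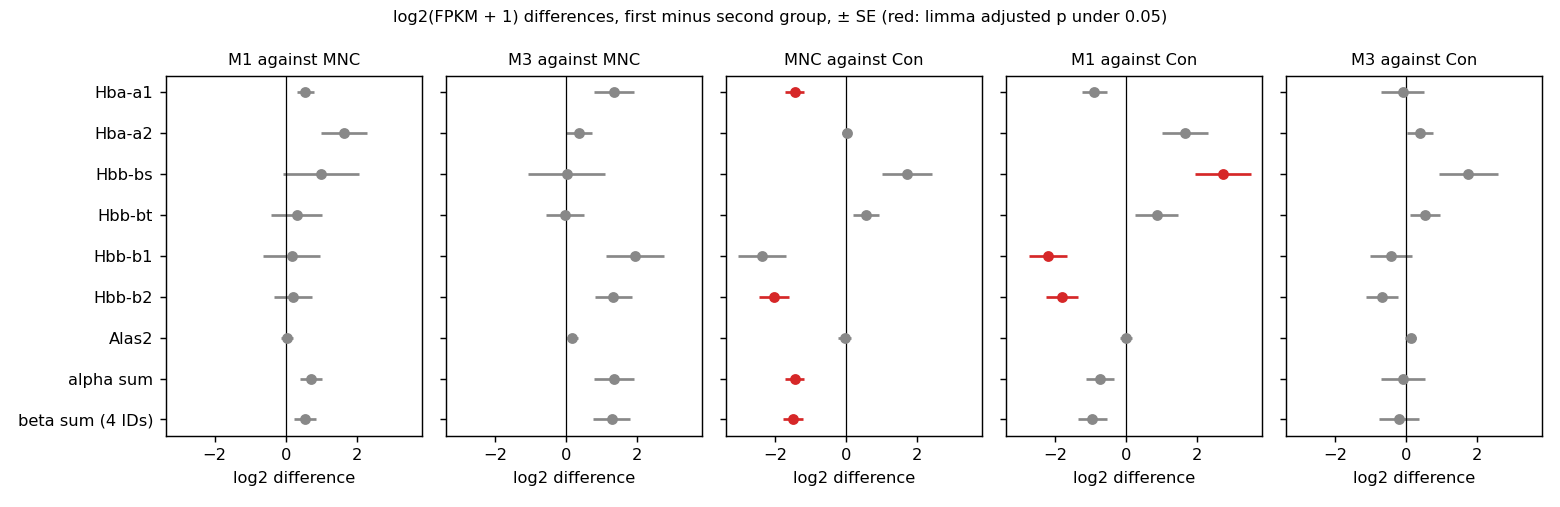
Differences of log2(FPKM + 1), first minus second group, with limma standard errors, for the globin IDs, Alas2 and the alpha and beta sums in the 5 comparisons tested, with red points for an adjusted p under 0.05. In MNC against Con, Hbb-bs lies at 1.72 while the alpha and beta sums lie at -1.45 and -1.50.

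None of the other red cell genes tested was called higher in M5 as reported, although 2 were with all 5 groups in one fit. Of 74 genes in 4 lists of other globin, red cell, heme synthesis and heme clearance genes, 71 had a row and 46 were tested in M5 against MNC. limma called 0 higher and 1 lower, with 6 at an unadjusted p under 0.05 where 24.9% of all genes lay under it, beside 2.76% of all genes called higher and 2.89% lower. The 1 gene called was Hemgn, a nuclear regulator of red cell precursors that also has a testis form, at a log2 difference of -0.44 (SE 0.0806, limma adjusted p = 0.0352). It was at 35.53, 39.01 and 34.94 FPKM in M5 against 49.83, 46.09 and 54.29 in MNC, with no overlap, and leaving out any 1 library of these groups took the call away.

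The list of 38 red cell membrane, enzyme and transcription factor genes had 20 tested, with a median log2 difference of 0.02 in M5 against MNC. Beside Hemgn, 4 of them lay under an unadjusted p of 0.05, all with M5 above MNC and none called, namely Prdx2, Gypc, Bnip3l and Lmo2, at log2 differences of 0.72, 0.37, 0.26 and 0.29 (limma adjusted p = 0.0889, 0.158, 0.159 and 0.193). Prdx2, a peroxiredoxin abundant in red cells and made in many other cells, was at 34.95, 37.86 and 61.29 FPKM in M5 against 26.80, 26.58 and 24.31 in MNC, and at 33.31, 34.46 and 29.66 in Con. M5 replicate 3 was the highest library for Prdx2, as it was for Hba-a1 and for many markers of other cells named below. The red cell membrane gene Epb42 and the Rh-associated glycoprotein gene Rhag, of the same list, stayed at or below 0.02 and 0.04 FPKM in every library. None of the 13 heme synthesis and mitochondrial iron genes was called. Slc25a37, a mitochondrial iron gene, lay under an unadjusted p of 0.05 with M5 below MNC, at a log2 difference of -0.27 (limma adjusted p = 0.1595). The most abundant of the 13 were Alas1, the housekeeping form of the enzyme that Alas2 makes in red cells, and Alad, the next enzyme of the pathway. Their log2 differences were -0.24 and 0.12 (limma adjusted p = 0.303 and 0.762). Of the 9 tested genes of hemoglobin and heme clearance none was called, led by Hmox2, a heme oxygenase, and Fth1, a ferritin subunit, at 0.08 and 0.22 (limma adjusted p = 0.498 and 0.556). Of the 11 other globin genes 4 were tested and 0 called, and the embryonic globins Hbb-y and Hba-x stayed at or below 0.23 and 0.08 FPKM.

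Over the same 46 genes limma called 0 in M1 against MNC and 0 in M3 against MNC, beside 0% and 0.00689% of all genes. Before adjustment, 2 and 4 of the 46 lay under 0.05, beside 5.94% and 9.43% of all genes. In MNC against Con 4 were higher and 4 lower, in M1 against Con 6 and 14, and in M3 against Con 5 and 8. These counts stand beside 20.4%, 34.2% and 22.1% of all genes called in the same 3 comparisons. Alas1, for example, was at 62.77, 54.52 and 41.64 FPKM in Con and at 28.22, 29.81 and 29.23 in M1.

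Markers of other blood and testis cells were set beside the M5 values, and their part in the globin difference was not tested. The 10 macrophage and monocyte markers summed to 138.5 to 354.7 FPKM in M5 and 107.9 to 195.9 in MNC. All 10 were tested and 0 called, with 1 at an unadjusted p under 0.05 beside 24.9% of all genes, and Lyz2 and C1qa led the list. Lyz2, a lysozyme of myeloid cells, was at 52.96, 66.81 and 156.19 FPKM in M5 against 43.93, 30.48 and 30.58 in MNC (limma adjusted p = 0.116), highest in the M5 library with the highest globin.

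Platelet markers were low, with 6 of 10 below 0.5 FPKM in every library and sums of 3.17 to 5.90 FPKM in M5 and 3.71 to 4.52 in MNC, led by Pf4 and Itgb3. Of 11 neutrophil markers 5 stayed below 0.5 FPKM in every library, and their sums of 215.4 to 681.7 in M5 and 213.8 to 313.4 in MNC were nearly all Lcn2, ahead of S100a9. S100a9, a calcium-binding protein gene of neutrophils and monocytes, was at 0.52, 1.25 and 5.22 FPKM in M5 against 0.09, 0.20 and 0.08 in MNC, with no overlap and a log2 difference of 1.30 that was not called (limma adjusted p = 0.159). In M3 it was at 2.99, 0.88 and 6.17 FPKM, also all above MNC, with a larger log2 difference of 1.75 that was not called (limma adjusted p = 0.518). It was called higher in M3 against Con (limma adjusted p = 0.0343), where 22.1% of all genes were called. The part of S100a9 in the globin difference was not tested. Lymphocyte markers, led by Cd3d and Ptprc, summed to 18.01 to 19.48 in M5 and 13.50 to 20.77 in MNC. Blood vessel endothelium, led by Cldn5 and Eng, summed to 23.27 to 34.05 in M5 and 22.57 to 27.77 in MNC.

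Sertoli cell markers, led by Cldn11 and Wt1, summed to 79.66 to 134.2 FPKM in M5 and 77.81 to 87.25 in MNC. Leydig cell markers, led by Insl3 and Cyp17a1, summed to 1503 to 3137 in M5 and 1550 to 1993 in MNC. Germ cell markers summed to 19720 to 27910 in M5 and 19220 to 25130 in MNC. Over the 8 lists of other cells the ranges of M5 and MNC overlapped. M5 replicate 3 was the highest of the 15 libraries for many leading markers of these lists. These were Lcn2, Ptprc, Lyz2, C1qa, Cldn5, Eng, Cldn11, Wt1 and Insl3. That library was not the highest for Pf4, Itgb3, S100a9, Cd3d, Cyp17a1, Prm1 or Prm2. Of the genes in these lists limma called 1 in M5 against MNC, beside 5.65% of all genes. That gene was the germ cell gene Dazl, which was higher in M5 (limma adjusted p = 0.0411) and is named here after its value was seen.

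The genes whose pattern over the 15 libraries was most like the mean log2 level of the 5 members that passed the filter were Lyz1 (Pearson r = 0.941), Gm4070 (0.932), Anxa1 (0.930), Rpl39 (0.926) and Caprin1 (0.924). These values are a description with no test, since the libraries share groups and M5 replicate 3 is far from the rest. Hba-a2, Hbb-bs and Hbb-bt, which enter this mean, were at most 0.15, 0.09 and 0 FPKM in Con. The mean therefore differs from total globin, whose beta sum was 25.07 to 56.7 FPKM in Con and 11.63 to 12.93 in MNC. Lyz1, the other mouse lysozyme gene, was at 26.47, 33.70 and 71.56 FPKM in M5 against 16.31, 9.67 and 10.16 in MNC. In Con it was at 7.32, 13.32 and 8.97 FPKM.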

How the data were processed

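Titles gave the group and the replicate number. For M5 replicate 2 the title was followed, since its description points to another M5 column. Per the study's methods, oligo(dT)-selected RNA was read on an Illumina HiSeq, and SOAPaligner placed the reads on reference genes. The submitters' processing notes name the build mm10. The authors deposited FPKM values to 2 decimals. Their methods name RPKM. Their methods give SOAPaligner's repeat option as 2, which reports every hit of a read that matches in several places; how such hits were then counted for each globin copy is not given in the sources used here. Of 23510 gene IDs, 21143 (89.9%) matched a RefSeq gene of GRCm38.p6, and 2208 others begin with BGI_novel. The smallest steps of low values, from 13 to 27 genes a library, gave relative depths of 0.913 to 1.022.

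Values were analysed as log2(FPKM + 1), which understates changes of low genes. The study's count test could not be run on FPKM, so limma 3.58.1 (eBayes with trend) in R 4.3.3 was fitted to the 2 groups compared, over the 14514 genes whose mean FPKM reached 1, two-sided, with Benjamini-Hochberg adjustment and a threshold of 0.05 on the adjusted p. Slc4a1, below the filter, had exact permutation tests. On 5 simulated sets of M1 against MNC with 14514 genes and 200 changed by 1 log2 unit, 82% of changed genes were called, and 4.61% of calls fell on unchanged genes. The changed genes were drawn at random with normal noise, so 82% is not the share to expect for the members. Their standard errors in M1 against MNC included 0.177 for Alas2, 0.239 for Hba-a1, 0.652 for Hba-a2 and 1.06 for Hbb-bs. Python 3.11.15, pandas 2.3.3, numpy 2.4.6, scipy 1.17.1 and matplotlib 3.10.9 were also used.

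The members and lists were chosen with earlier results of these data known. Named by rule were the 6 members, list genes called in M5 against MNC or otherwise the 2 most abundant, the 2 most abundant of each marker list, and the 5 genes most like the members. Epb42, Rhag, Hbb-y, Hba-x, Prdx2, Gypc, Bnip3l, Lmo2, Slc25a37, the S100a9 values, Alas1 in M1 against Con and the markers called in MNC against Con were added after their values were seen. Same-numbered libraries had correlations of deviations from -0.399 to 0.193, and no comparison had all 3 pairs over 0.1, so numbers were not taken as pairs. Alternatives were other pseudocounts, filters and scalings, no trend, all groups in one fit, the replicate block, summed copies, and leaving out each library.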

Additional observations from a re-analysis of the deposited data

How the results depend on the processing

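Absolute depth is unknown, and values under about 1 FPKM are compressed by the pseudocount of 1. With a pseudocount of 0.1, the median log2 difference of the 6 members in M5 against MNC was 3.797 in place of 2.467. The calls of single members were fragile, as given beside them. The number of members called in MNC against Con was 1 as reported. It was 2 with a pseudocount of 0.1, and 0 with no filter or with all 5 groups in one fit. With each library left out in turn it was 0 to 1. In M1 against Con the number was also 1. It was 2 with a pseudocount of 0.1, and 0 to 3 with each library left out in turn. It was 0 with a filter of 0.1, with no filter, with quantile normalization and with all 5 groups in one fit. With all 4 beta IDs summed, the alpha and beta sums take the place of the single globins. Both sums were called lower in MNC against Con (limma adjusted p = 0.0250 and 0.0243), and neither was called in M1 against Con. The sum over all 4 beta IDs was chosen after seeing the data. It turned the difference of Hbb-bs in MNC against Con to -1.495, in M1 against Con to -0.948 and in M3 against Con to -0.207, because it adds the d copies.

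Small differences changed sign. In M3 against MNC, Hbb-bs was -0.213 with a pseudocount of 0.1 and -0.020 with the s copies summed, and Hbb-bt was 0.033 with median centring and 0.047 with quantile normalization. Under the same scalings Alas2 was 0.048 and 0.047 in MNC against Con, and 0.110 and 0.106 in M1 against Con, and Hba-a1 was 0.052 in M3 against Con with median centring. The cause was not tested. With each library left out in turn, Alas2 ran from -0.161 to 0.1 in M1 against Con, -0.106 to 0.162 in M1 against MNC, -0.023 to 0.203 in M3 against Con and -0.190 to 0.089 in MNC against Con. Hba-a1 ran from -0.666 to 0.554 in M3 against Con. Hba-a2 ran from -0.067 to 0.602 in M3 against Con, -0.084 to 0.586 in M3 against MNC and -0.067 to 0.084 in MNC against Con. Hbb-bs ran from -1.010 to 0.867 in M3 against MNC. Hbb-bt ran from -0.457 to 0.732 in M1 against MNC, 0.000 to 0.788 in M3 against Con and -0.558 to 0.394 in M3 against MNC. All of these are log2 differences that were not called as reported.

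Counts over the 46 red cell and heme genes moved more. In M5 against MNC, 2 were called higher with all 5 groups in one fit, and 0 lower with median centring or without the trend, and with each library left out 0 to 1 were higher and 0 lower. In MNC against Con, with 4 higher and 4 lower as reported, all 5 groups in one fit gave 7 and 1, a filter of 5 gave 7 lower, median centring 2 lower, and leaving out libraries 0 to 4 higher and 0 to 5 lower. In M1 against Con, the 14 lower became 6 with no filter, 5 with median centring, 5 with quantile normalization and 3 with all 5 groups, and leaving out libraries gave 2 to 6 higher and 2 to 13 lower. In M3 against Con, the 5 higher became 3 and the 8 lower 4 with no filter, the 8 lower became 2 with median centring, 2 with quantile normalization and 5 with all 5 groups, and leaving out libraries gave 0 to 3 higher and 0 to 10 lower. The cause was not tested.

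With the replicate number as a block, 0 members were called in MNC against Con, where Hba-a1 had a limma adjusted p of 0.0587 at the same difference of -1.448, and 1 in M1 against Con. The block also left 0 of the 46 genes called lower in M5 against MNC, 0 higher and 0 lower in MNC against Con, and 0 higher and 0 lower in M3 against Con. The numbers do not pair the libraries in these data.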
